A study of Mus musculus with 6 samples.

Results

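A group of 34 genes that carry a parental imprint was followed in long RNA of whole mouse brain, in 3 libraries from TRMT1L knockout (KO) animals and 3 from wild-type (WT) animals. The genes were chosen by symbol from the 55450 genes of the deposited count tables, and they fall into 17 imprinted domains or single loci. TRMT1L is a relative of TRMT1, which methylates a guanosine of tRNAs. The series calls its samples biological triplicates, and the tissue of every library is brain. Strain, age, sex, litter and the design of the KO allele were not given in the sources used here.

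Genomic imprinting marks a gene in the germ line so that, after fertilisation, only the copy from the mother or only the copy from the father is transcribed. The mark is DNA methylation laid down at imprinting control regions, and it is kept through early development by ZFP57, ZFP445 and TRIM28 together with the maintenance DNA methyltransferase. Imprinted genes lie in clusters in which long noncoding RNAs of one parental chromosome often accompany silencing of protein-coding neighbours, and many of them are expressed strongly in neurons, where they bear on growth, feeding, maternal behaviour and sleep. The read counts used here add both parental copies together, so they give the level of each gene and not which allele it came from. In RNA of a whole tissue, fewer cells of a type and less RNA per cell cannot be told apart.

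The libraries held between 78341827 and 89979690 reads, of which 31201119 to 36145961 were counted in genes on the sense strand. Trmt1l itself was at 35.1, 33.0 and 35.2 CPM (counts scaled to the library total with its TMM factor) in the WT libraries and at 2.68, 3.0 and 2.93 CPM in the KO libraries (log2 fold change −3.58, SE 0.0813, edgeR adjusted p = 6.95e-10). The share of mapped reads that fell in no gene on the sense strand lay between 50.3% and 52.2% in WT and between 48.6% and 49.8% in KO, without overlap, and its part in the results was not tested. Of 8 neuronal markers, none of them at 0, 3 were higher and 5 lower in KO, 4 did not overlap (14.4% of all genes) and 0 were called, while pituitary hormone genes summed to at most 1.52 CPM in any library. Summed neuronal markers overlapped between the genotypes, at 5923 to 6194 CPM in WT and 5725 to 6070 CPM in KO. All 6 oligodendrocyte markers were lower in KO, with a median log2 fold change of −0.096, and all 5 blood markers were higher, with a median of 0.52. In both lists 0 were called and the sums overlapped, at 4074 to 4498 against 3495 to 4197 CPM and at 109 to 149 against 98.3 to 247 CPM, and their part in the results was not tested. Of 6 astrocyte and of 6 vascular markers 4 were higher and 2 lower, and of 6 microglia markers 2 were higher and 4 lower. Here too 0 were called and the sums overlapped. At an edgeR unadjusted p under 0.05 there were 2 higher and 1 lower astrocyte markers and 1 lower microglia marker, against 4.54% and 3.38% of all genes.

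None of the imprinted genes passed the test between KO and WT brain, and for most the measured difference was small. Of the 34 genes, 33 had enough reads to be tested. Under the quasi-likelihood test of edgeR, with Benjamini-Hochberg adjusted p-values over all 21237 genes tested, 0 of 33 had an adjusted p under 0.05, and the lowest adjusted p among them was 0.593. Over all genes 0.00942% were called, Trmt1l among them. At an unadjusted p under 0.05 there were 2 members (2 higher and 0 lower in KO), against 7.92% of all genes (4.54% higher and 3.38% lower). In 4 members the KO and WT libraries did not overlap, against 14.4% of all genes. Those were Cdkn1c and Trappc9, higher in KO (background 7.46%), and Sgce and Ube3a, lower in KO (background 6.97%). These shares lie close to the background, and nothing is read from them about imprinted genes.

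The sizes of the differences were small. The log2 fold changes ran from −0.11 for Rian to 0.36 for Cdkn1c, with 19 members above 0 and 14 below and a median of 0.017, against a median of 0.00013 over all genes. In 27 of 33 members (81.8%) the log2 fold change was under 0.1 in size, which held for 56.1% of all genes tested. The 95% interval of the fold change stayed within 1.5-fold in either direction for 30 of 33 members (90.9%) and for 73.3% of all genes. The 3 whose interval reached past 1.5-fold were Cdkn1c, Mkrn3 and H19, all at low counts. Interval width follows the read count, and the members were not set against genes of matched level.

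**Figure D1:**
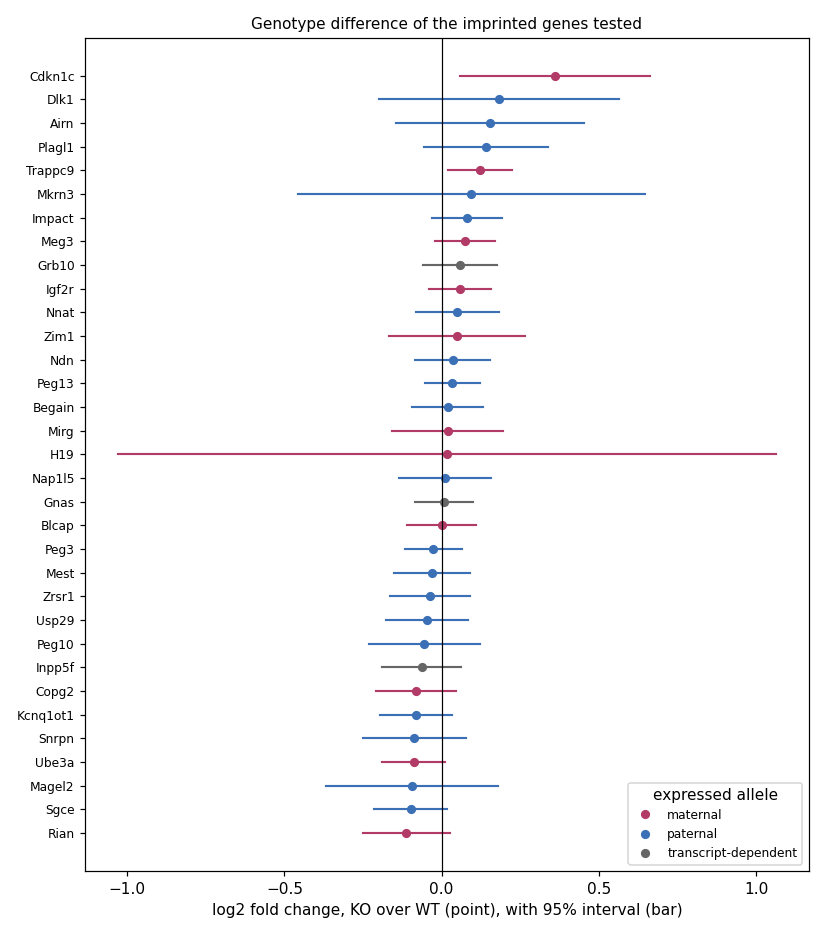
Log2 fold change of each tested member, KO over WT, as a point with its 95% interval as a bar, coloured by the parental allele that is expressed. The intervals of Cdkn1c and Trappc9 lie above 0, and the other 31 hold 0.

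By expressed allele, the 20 paternally expressed genes, of which 19 were tested, had 10 values above 0 and 9 below, with a median of 0.010. The 11 maternally expressed genes had 7 above and 4 below, with a median of 0.019. Igf2r is counted among them, though in mouse neurons it is known to be expressed from both copies. Gnas, Grb10 and Inpp5f, whose expressed allele depends on the transcript or cell type, had a median of 0.0069. Summed over all members, the libraries held 5634, 5494 and 5757 CPM in WT and 5657, 5656 and 5441 CPM in KO, so the groups overlapped.

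The abundance of the members spanned several orders of magnitude. Set per kilobase of exon, so that genes of different length can be compared, the highest was Nap1l5, a histone chaperone relative, at 131 CPM per kb, above 99.5% of the genes tested. Next came Snrpn at 86.3, Peg3 at 72.4, Gnas at 68.8 and Peg13 at 67.7 CPM per kb. At the other end of the detected members were Dlk1 at 0.696, Mkrn3 at 0.522 and H19 at 0.164 CPM per kb, and Rtl1 was at 0. H19, a noncoding RNA abundant in the fetus, had 18, 4 and 19 counts in WT and 16, 7 and 20 in KO, which is too few to show a difference. Replicates were close, with a median coefficient of variation of 4.62% in WT and 5.46% in KO.

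The Peg3 domain on chromosome 7 holds paternally expressed Peg3, a zinc finger protein linked to maternal behaviour, and Usp29, a ubiquitin-specific protease, with maternally expressed Zim1 beside them. Peg3 (chromosome 7, 6703892 to 6730431, minus strand) was at 999.7, 949 and 972 CPM in WT and at 985, 969.7 and 914 CPM in KO. The libraries overlapped, and the log2 fold change was −0.03 (SE 0.0412, edgeR adjusted p = 0.897). Usp29 was at 113, 106 and 126 CPM in WT and 113, 112 and 109 CPM in KO, giving a log2 fold change of −0.05. Zim1, a zinc finger gene, stood at 16.2 ± 2.21 CPM in WT against 16.7 ± 1.07 CPM in KO (SD, n = 3). The ratio of Peg3 to Usp29 per kb overlapped between the groups, from 10.5 to 12.1 in WT and from 11.3 to 11.8 in KO.

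Peg3 and Usp29 are read in opposite directions from one shared stretch. Their RefSeq start sites in build GRCm38.p6 lie 164 bases apart, and the 300-base windows around the starts have 263 bases in common. The sequence before the Peg3 start is shown because both genes are transcribed from it, and no letters are capitalised since neither motif searched below occurs in it.
Peg3, chr7:6730420-6730669, minus strand: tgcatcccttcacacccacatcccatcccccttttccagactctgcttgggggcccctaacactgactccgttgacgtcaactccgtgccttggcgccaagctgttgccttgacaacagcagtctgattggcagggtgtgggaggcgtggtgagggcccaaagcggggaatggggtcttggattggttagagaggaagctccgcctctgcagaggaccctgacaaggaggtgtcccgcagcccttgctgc

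The Dlk1-Dio3 domain on chromosome 12 holds the paternally expressed genes Dlk1, Rtl1 and Begain, and a run of maternally expressed noncoding RNAs, Meg3, Rian and Mirg, read in the same direction. Meg3 (chromosome 12, 109541001 to 109571726) was at 409, 422 and 421 CPM in WT and 417, 446 and 454 CPM in KO. One KO library lay among the WT values and the others above them, and the log2 fold change was 0.07 (SE 0.0430, edgeR adjusted p = 0.697). Rian, which hosts small nucleolar RNAs, was at 335, 351 and 346 CPM in WT and 286, 351 and 319 CPM in KO. Here the groups overlapped at KO replicate 2, and the log2 fold change was −0.11 (SE 0.0632, 95% interval −0.25 to 0.026, edgeR adjusted p = 0.688). It was −0.19 without KO replicate 2 and −0.041 without KO replicate 1 (edgeR adjusted p = 0.646 and 0.858). Mirg, a host of many miRNAs, was at 84.9, 85.9 and 83.3 CPM in WT and 75.4, 98.9 and 83.1 CPM in KO, a wider spread in KO on either side of WT.

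Because these RNAs lie in a row on one strand, their ratios within a library were compared. Meg3 per kb relative to Rian per kb was 1.23, 1.21 and 1.23 in WT and 1.47, 1.28 and 1.44 in KO, with every KO library above every WT library. The means were 1.22 ± 0.0107 and 1.397 ± 0.102 (SD, n = 3 each; two-sided exact permutation p = 0.1, the lowest that 3 against 3 libraries can reach). Rian relative to Mirg was 1.58, 1.64 and 1.66 in WT and 1.52, 1.42 and 1.53 in KO, also without overlap (exact permutation p = 0.1). After adjustment over the 12 pairs of members compared both exact p-values were 0.6, and the other 10 pairs overlapped. Both ratios without overlap contain Rian, so they are not independent of each other. B830012L14Rik, a noncoding gene annotated between Rian and Mirg, was at 29.3, 31.5 and 29.8 CPM in WT and 27.8, 27.7 and 25.8 CPM in KO (log2 fold change −0.16, edgeR adjusted p = 0.6003).

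**Figure D2:**
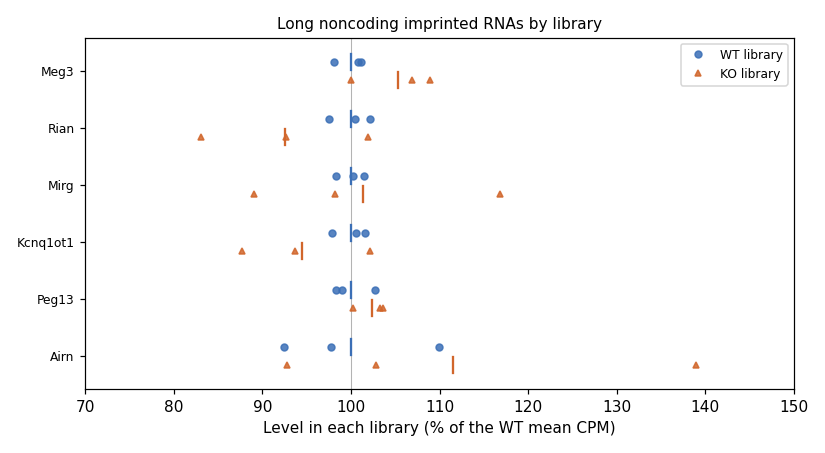
Level of 6 imprinted noncoding RNAs in each library as a percentage of the WT mean, with WT and KO libraries as separate symbols. Rian is lowest in KO replicate 1, and KO replicate 2 holds the highest Mirg and Airn.

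Of the protein-coding genes in the domain, Dlk1, a transmembrane protein of the Notch ligand family that restrains differentiation, was low at 4.34, 2.78 and 3.92 CPM in WT and 4.92, 3.86 and 3.79 CPM in KO. Begain, a postsynaptic protein, averaged 62.8 ± 2.90 CPM in WT against 63.7 ± 1.30 CPM in KO (SD, n = 3). Rtl1, a retrotransposon-derived gene needed in the placenta, had 0 sense counts in all 6 libraries. A count of 0 allows up to 3 counts, or 0.0824 to 0.0957 CPM depending on the library, and this limit covers counting error only.

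Rtl1 lies under a set of maternally expressed miRNAs that are read from the opposite strand and are fully complementary to its transcript. RefSeq lists 106 mature miRNAs on the plus strand of the domain, with 97 different seeds, and 11 of them lie opposite an exon of Rtl1. One arm of each hairpin there is printed to show that pairing set, in RNA letters with the seed (bases 2 to 8) in capitals.
miR-431-5p: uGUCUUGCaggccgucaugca
miR-433-3p: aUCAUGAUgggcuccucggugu
miR-127-3p: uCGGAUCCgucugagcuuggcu
miR-434-3p: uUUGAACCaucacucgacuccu
miR-432: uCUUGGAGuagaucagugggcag
miR-136-5p: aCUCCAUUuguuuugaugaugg
These 6 seeds differ from each other and from every other seed in the domain, whereas 9 seeds occur more than once, as in the next pair, which begins with the same 8 bases.
miR-379-5p: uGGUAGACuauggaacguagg
miR-1193-5p: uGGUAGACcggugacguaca
Mature miRNAs are far shorter than the 200-base cut of the RNA, so they were not measured, and only reads over the hairpin genes were. Of 59 miRNA genes annotated between the start of Meg3 and the end of Mirg, 34 had a count and 31 were tested, with 20 values above 0 and 11 below, a median of 0.15 and 0 called. Their summed level was 42.2, 42.5 and 41.2 CPM in WT and 42.3, 48.7 and 43.1 CPM in KO. Such reads can come from the long host RNA.

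In the Prader-Willi/Angelman domain on chromosome 7 the paternal chromosome expresses Snrpn, Ndn, Magel2 and Mkrn3, and in neurons a long noncoding RNA, Snhg14, that runs on through Ube3a in the opposite direction and silences the paternal copy of that gene. Ube3a encodes the ubiquitin ligase whose maternal loss causes Angelman syndrome. It was at 221, 219 and 234 CPM in WT and 217, 214 and 202 CPM in KO. All KO libraries lay below all WT libraries, by a narrow margin, and the log2 fold change was −0.09 (SE 0.0461, 95% interval −0.19 to 0.011, edgeR adjusted p = 0.655). Snrpn, a splicing protein, was at 192, 171 and 213 CPM in WT and 196, 173 and 173 CPM in KO. WT replicate 2 was as low as the lower KO libraries, so the groups overlapped (log2 fold change −0.09, edgeR adjusted p = 0.7996). In this counting, reads on the 589 exon bases that Snrpn shares with Gm38393 and the 216 it shares with Snurf, on the same strand, were left out, so the level of Snrpn is an underestimate.

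Ndn, a growth suppressor of neurons and a member of the MAGE family, was at 125, 126 and 129 CPM in WT and 139, 121 and 129 CPM in KO. KO values fell on either side of WT, and the log2 fold change was 0.04 (edgeR adjusted p = 0.896). Magel2, of the same family, which acts in endosomal protein recycling, averaged 7.15 ± 1.14 CPM in WT against 6.71 ± 0.310 CPM in KO (SD, n = 3). Mkrn3, a ubiquitin ligase that restrains puberty, had only 49, 52 and 28 counts in WT and 57, 46 and 40 in KO.

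The strand opposite to Ube3a carried more reads than Ube3a itself. Of all stranded counts over its exons, 61.3%, 63.3% and 61.5% were on the opposite strand in WT and 59.7%, 60.5% and 61.6% in KO. The means of 62.0% ± 1.08 and 60.6% ± 0.978 (SD, n = 3 each) did not separate (exact permutation test, two-sided, p = 0.3, adjusted 0.861 over the members). Counted per library, 12736, 11812 and 12267 opposite-strand reads were found in WT and 11156, 11050 and 11723 in KO. Scaled to the opposite-strand totals these were 6328, 6828 and 6991 CPM in WT and 5913, 5952 and 5850 CPM in KO, with every KO library below every WT library, where 10.7% of all genes tested on that strand did not overlap (5.27% higher and 5.43% lower in KO). The log2 fold change was −0.19 (SE 0.0611, 95% interval −0.31 to −0.060), which did not pass edgeR's test (adjusted p = 0.673) but passed limma-voom (adjusted p = 0.0459). On the opposite strand 0 of 15 members tested were called by edgeR, against 0.0278% of all genes, and Ube3a alone had an unadjusted p under 0.05, against 5.75% of all genes (2.91% higher and 2.84% lower).

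**Figure D3:**
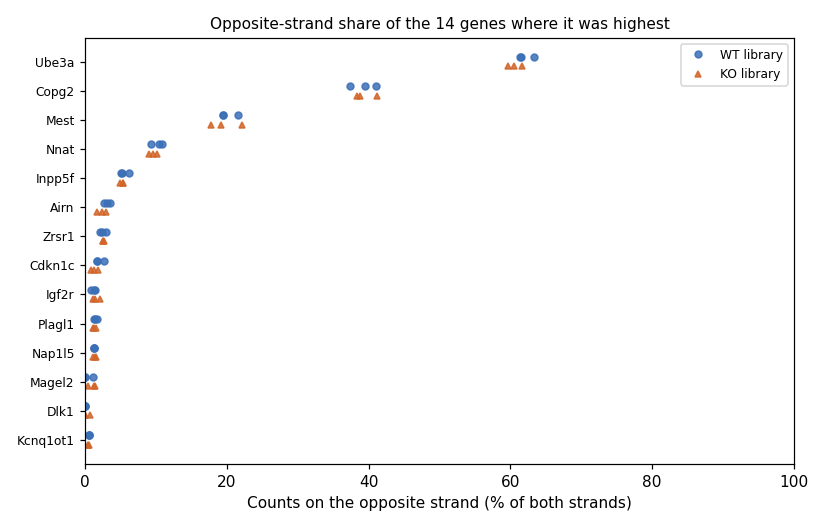
Share of each member's stranded counts that fell on the opposite strand, in percent, for the 14 members where it was highest, by library. Ube3a stands above 59% in all 6 libraries, Copg2 and Mest follow, and the genotypes lie together.

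Several minus-strand transcripts of the domain are annotated as separate genes. Of these, Snhg14, 9330162G02Rik and Gm44560 share exon bases with Ube3a, so their values can share reads with its opposite-strand count. Snhg14 (chromosome 7, 59307924 to 59975759, minus strand) was at 729, 754 and 706 CPM in WT and 669, 691 and 667 CPM in KO. Every KO library lay below every WT library, and the log2 fold change was −0.11 (SE 0.0395, edgeR adjusted p = 0.579). Gm44560, within Ube3a, was at 53.6, 57.4 and 56.9 CPM in WT and 46.0, 48.9 and 48.8 CPM in KO (log2 fold change −0.22, SE 0.0534, edgeR adjusted p = 0.576). Gm38393, which overlaps Snrpn, was at 86.9, 89.1 and 83.7 CPM in WT and 79.4, 75.9 and 74.7 CPM in KO (log2 fold change −0.17, edgeR adjusted p = 0.576). The remaining features gave −0.15 for 9330162G02Rik, −0.23 for Gm44562 and −0.14 for Gm44559, with adjusted p-values of 0.606, 0.602 and 0.724. All of these were named for their position, after their values were seen. Inside Snhg14, 43 of 208 small nucleolar RNA genes were tested, with 10 values above 0 and 33 below, a median of −0.13 and 0 called. Their summed level overlapped, at 60.3, 68.5 and 58.0 CPM in WT and 54.2, 59.8 and 61.4 CPM in KO, and these reads too can come from the long host RNA.

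**Figure D4:**
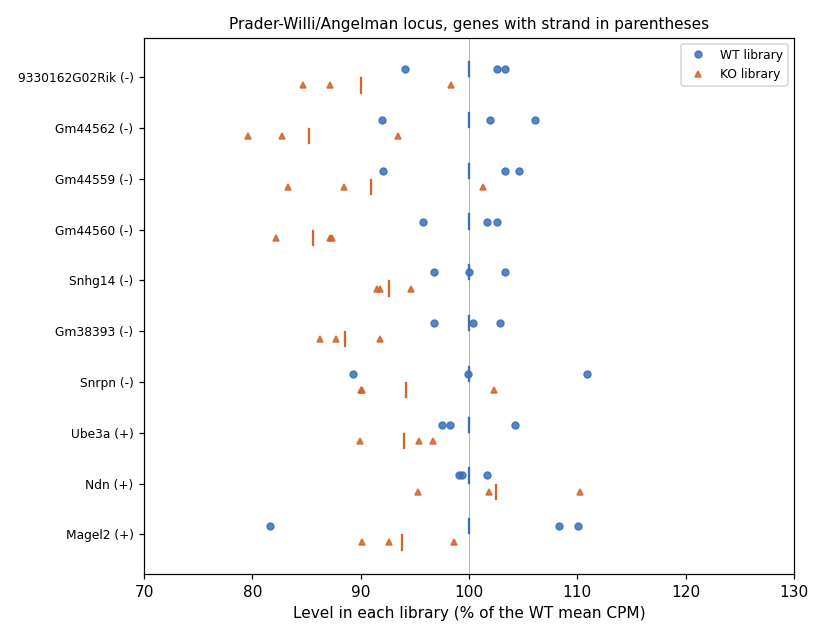
Level of genes of the Prader-Willi/Angelman domain in each library as a percentage of the WT mean. The minus-strand features from 9330162G02Rik to Gm38393 sit mostly below 100% in KO. Magel2 also lies below 100% in every KO library, within its WT range, while Ndn spreads around it.

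The pairs Sgce with Peg10 and Mest with Copg2 lie on chromosome 6. Sgce, a sarcoglycan whose human counterpart is mutated in myoclonus dystonia, was at 33.9, 32.8 and 33.5 CPM in WT and 31.5, 30.7 and 31.3 CPM in KO. No KO library reached the WT values, yet the log2 fold change was −0.10 (SE 0.0532, 95% interval −0.22 to 0.018, edgeR adjusted p = 0.673). Its retrotransposon-derived neighbour Peg10 averaged 58.1 ± 5.81 CPM in WT against 56.0 ± 4.97 CPM in KO (SD, n = 3), with overlap. Mest, a hydrolase-like enzyme, stood at 60.4 ± 3.45 CPM in WT against 59.2 ± 1.26 CPM in KO, and Copg2, a coat protein of vesicles, at 78.4 ± 2.89 and 74.2 ± 5.12 CPM (SD, n = 3). Mest and Copg2 meet tail to tail and share 912 exon bases on opposite strands. Their opposite-strand shares were 17.7% to 22.2% for Mest and 37.4% to 41.1% for Copg2, and overlapped between the genotypes.

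Nnat, a small membrane protein of developing neurons, lies inside an intron of Blcap on the other strand. Nnat was at 85.4, 74.9 and 85.7 CPM in WT and 86.4, 81.5 and 86.7 CPM in KO, which overlapped (log2 fold change 0.05, edgeR adjusted p = 0.858). Blcap averaged 76.8 ± 1.15 CPM in WT against 76.8 ± 3.81 CPM in KO (SD, n = 3). Between 8.96% and 10.8% of counts over Nnat were on the opposite strand. Among the 31 members with at least 50 counts over both strands in every library, 19 had at most 1% on the opposite strand in every library, and Peg3 had at most 0.0908%.

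Cdkn1c showed the largest difference among the members. It encodes p57, a cyclin-dependent kinase inhibitor that is silenced on the paternal chromosome in the domain of Kcnq1ot1, and lies at 143458339 to 143461050 on chromosome 7. Its level was 3.05, 3.70 and 3.52 CPM in WT and 4.66, 3.80 and 4.70 CPM in KO. All KO libraries were above all WT libraries, although KO replicate 2 exceeded the highest WT value only slightly. The log2 fold change was 0.36 (SE 0.138, 95% interval 0.059 to 0.66), which did not pass edgeR's test (adjusted p = 0.593). Between the groups, choroid plexus markers lay in the same direction: all 8 were higher in KO, 0 of them were called, and 2 had an unadjusted p under 0.05 (4.54% of all genes, higher). In 4 of the 8 the groups did not overlap (7.46% of all genes, higher). Their sum did not overlap either, at 384, 328 and 371 CPM in WT and 464, 454 and 389 CPM in KO. Ttr, the transthyretin of that epithelium, was at 317, 263 and 300 CPM in WT and 384, 372 and 320 CPM in KO (edgeR adjusted p = 0.576). Within the groups the order of libraries differed. WT replicate 1 held the highest WT sum of these markers and the lowest Cdkn1c, and KO replicate 3 the lowest KO sum and the highest Cdkn1c. None of the 8 markers was at 0 in the libraries, and their part in the value of Cdkn1c was not tested.

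Kcnq1ot1, the long noncoding RNA of the domain, is annotated as 1 exon of 93092 bases. It was at 575, 592 and 597 CPM in WT and 551, 600.3 and 515 CPM in KO. KO replicates 1 and 3 lay below WT and replicate 2 above it, and the log2 fold change was −0.08 (SE 0.0525, edgeR adjusted p = 0.727). Kcnq1, on the opposite strand, had at most 27 counts in any library.

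Trappc9, a subunit of a vesicle tethering complex, was at 80.9, 80.8 and 77.8 CPM in WT and 84.4, 86.9 and 89.3 CPM in KO. Every KO library was above every WT library, and the log2 fold change was 0.12 (SE 0.0468, 95% interval 0.020 to 0.22, edgeR adjusted p = 0.595). Peg13, a paternal noncoding RNA, lies in an intron of Trappc9 on the same strand and can therefore collect intronic reads of it. It was at 313, 311 and 325 CPM in WT and 326, 327 and 317 CPM in KO, with overlap (log2 fold change 0.03, edgeR adjusted p = 0.857). Relative to Trappc9 per kb, Peg13 ran from 6.46 to 7.01 in WT and from 5.96 to 6.49 in KO (exact permutation p = 0.2, adjusted 0.8).

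Igf2r, the receptor that clears insulin-like growth factor 2, is silenced on the paternal chromosome by the antisense RNA Airn. In neurons of the mouse, Igf2r is known to be expressed from both copies. It was at 111, 105 and 110 CPM in WT and 110, 116 and 113 CPM in KO, with overlap and a log2 fold change of 0.06 (edgeR adjusted p = 0.781). Airn was at 12.5, 10.5 and 11.1 CPM in WT and 10.5, 15.8 and 11.7 CPM in KO, where KO replicate 2 alone was high. That library also held the highest Mirg.

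The remaining members are single loci. Gnas, the stimulatory G protein subunit, was at 759, 746 and 796 CPM in WT and 802, 757 and 754 CPM in KO, with overlap (log2 fold change 0.0069, edgeR adjusted p = 0.982). Impact, which restrains the amino acid sensor GCN2, was at 256, 248 and 255 CPM in WT and 288, 260 and 255 CPM in KO. One KO library stood above the rest, and the log2 fold change was 0.08 (SE 0.0508, edgeR adjusted p = 0.728). Plagl1, a zinc finger regulator of growth genes, was at 29.7, 28.2 and 33.5 CPM in WT and 34.5, 37.0 and 29.4 CPM in KO, with overlap. Grb10, an adaptor that damps insulin signalling, averaged 71.0 ± 1.86 CPM in WT against 74.0 ± 4.07 CPM in KO (SD, n = 3). Zrsr1, a splicing factor retrogene, stood at 77.2 ± 5.59 and 75.3 ± 1.75 CPM, and Inpp5f, an inositol phosphatase, at 124 ± 7.93 and 119 ± 5.73 CPM (SD, n = 3 each). Nap1l5 was at 240 ± 23.7 CPM in WT against 242 ± 13.2 CPM in KO (SD, n = 3). For these 7 genes the groups overlapped.

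Promoter sequence was examined because the imprint-keeping factor ZFP57 binds the letters TGCCGC when they are methylated. RefSeq windows of 300 bases around the start were found for 26 of the 34 members, 40 windows in all. TGCCGC, searched on both strands, was in 10 of 40 member windows (25.0%) and in 11.6% of 32851 windows of all genes. Member windows were richer in CpG, with a median observed-to-expected ratio of 0.614 against 0.384 and a ratio over 0.6 in 55.0% against 35.8%. Among CpG-rich windows alone the motif was in 8 of 22 members' windows (36.4%) and in 24.3% of all. The 9 genes with it were Nnat, Mest, Copg2, Nap1l5, Zim1, Snrpn, Plagl1, Grb10 and Meg3. The YY1 letters AANATGGC, searched in the same way, were in 2 of 40 member windows (5.0%) and in 6.05% of all. Windows of one gene can overlap, and a match describes letters, not binding.

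The 250 bases before the start are printed for 3 of the 9, with the motif or its reverse complement in capitals, from GRCm38.p6. Mest and Nap1l5 are examples of paternally expressed genes whose control region lies at the promoter. Meg3 is maternally expressed, and the main control region of its domain lies further upstream.
Mest, chr6:30737800-30738049, plus strand: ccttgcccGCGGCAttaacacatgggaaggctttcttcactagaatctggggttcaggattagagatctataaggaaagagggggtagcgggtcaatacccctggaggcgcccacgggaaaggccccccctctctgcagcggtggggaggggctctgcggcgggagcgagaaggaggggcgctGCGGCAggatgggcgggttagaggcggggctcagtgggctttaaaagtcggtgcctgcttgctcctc
Nap1l5, chr6:58907127-58907376, minus strand: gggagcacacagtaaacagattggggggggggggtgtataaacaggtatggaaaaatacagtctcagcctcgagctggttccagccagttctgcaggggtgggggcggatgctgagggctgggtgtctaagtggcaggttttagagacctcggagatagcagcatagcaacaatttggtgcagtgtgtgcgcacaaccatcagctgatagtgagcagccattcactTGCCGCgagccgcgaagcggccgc
Meg3, chr12:109540746-109540995, plus strand: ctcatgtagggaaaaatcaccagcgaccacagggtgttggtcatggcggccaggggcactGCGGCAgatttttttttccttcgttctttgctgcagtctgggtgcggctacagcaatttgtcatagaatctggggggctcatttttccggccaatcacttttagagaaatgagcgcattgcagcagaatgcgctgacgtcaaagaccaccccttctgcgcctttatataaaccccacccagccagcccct
The 2 matches in the Mest sequence, the 1 in Nap1l5 and the 1 in Meg3 accompany log2 fold changes of −0.03, 0.01 and 0.07, and none of these genes passed the test.

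Other imprinted genes, 50 in a list apart from the members, were counted in the same way. The counts do not show which of them are imprinted in brain. Of the 42 tested, 19 were above 0 and 23 below, with a median log2 fold change of −0.015 and 0 called. At an unadjusted p under 0.05, 4 of the 42 were higher and 4 lower, against 4.54% and 3.38% of all genes. In 12 of the 42 the groups did not overlap, against 14.4% of all genes. These shares are above the background, and whether the list differs from all genes was not tested. Phlda2 was at 0. The lowest p-values were those of Adam23, Dcn and Tssc4. Adam23, a neuronal surface protein, was at 331, 325 and 315 CPM in WT and 302, 280 and 286 CPM in KO (log2 fold change −0.16, edgeR adjusted p = 0.576). Dcn, a matrix proteoglycan and also one of the meningeal fibroblast markers used here, was at 18.2, 19.4 and 18.7 CPM in WT and 16.1, 14.4 and 16.7 CPM in KO. Tssc4, a gene of the Kcnq1 domain, was at 18.2, 17.3 and 16.5 CPM in WT and 19.3, 20.5 and 21.2 CPM in KO. The summed meningeal markers overlapped, at 92.1 to 104 CPM in WT and 84.3 to 107 CPM in KO, and their part in the value of Dcn was not tested.

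Factors that set or keep imprints formed a further list. Of 28 tested among 30, 14 were above 0 and 14 below, with 0 called and Dppa3 at 0. At an unadjusted p under 0.05, 1 of the 28 was higher and 2 lower, against 4.54% and 3.38% of all genes. In 6 the groups did not overlap, against 14.4% of all genes. Ehmt2, a histone H3 lysine methyltransferase, was at 128, 130 and 130 CPM in WT and 138, 145 and 143 CPM in KO, above WT in every library (log2 fold change 0.13, edgeR adjusted p = 0.576). Zfp445, the zinc finger protein that guards imprints beside ZFP57, was at 222, 217 and 224 CPM in WT and 205, 207 and 200.4 CPM in KO (log2 fold change −0.12, edgeR adjusted p = 0.579). Tet1, which oxidises methylated cytosine, was at 62.3, 58.9 and 56.0 CPM in WT and 54.7, 52.2 and 53.5 CPM in KO (edgeR adjusted p = 0.589).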

How the data were processed

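Long RNA of whole brain was sequenced in 3 WT and 3 KO libraries. Per the labels, total RNA was size-selected and made into Illumina TruSeq libraries. The authors deposited whole-number read counts per gene, not normalized, in unstranded, sense and opposite-strand columns; the submitters' processing notes name cutadapt 1.9.1 and STAR 2.7.0f. Genome build and annotation were not given in the sources used here, and all 55450 gene identifiers matched GENCODE M21. The sense column held at least 94.6% of stranded counts in every library and was used. Reads in several genes of 1 strand were left out by the counting.

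Genes were filtered (filterByExpr), scaled with TMM and tested with edgeR 4.0.16 in R 4.3.3 by the quasi-likelihood test on all 6 libraries, with Benjamini-Hochberg adjustment. Libraries are labelled biological replicates, and nothing else says how animals were kept apart. No pair of libraries of the same genotype agreed within sampling noise. Standard errors and 95% intervals come from that fit, and CPM uses the TMM-scaled totals. Opposite-strand counts were tested separately, scaled to their own totals. Ratios and shares were compared by exact permutation tests, two-sided. The fit was tested on simulated data. Alternatives were DESeq2 size factors, total counts, the unstranded column, no filter, a mean count of at least 50, DESeq2 1.42.0, limma 3.58.1 (voom), the replicate block and leaving out each library. All members are named; of the 2 wider lists, up to 3 genes with the smallest p and at least 1 CPM. Members and lists were chosen with earlier results of these data known. Mapping of sequences used RefSeq tables on GRCm38.p6.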

Additional observations from a re-analysis of the deposited data

How the results depend on the processing

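Under every alternative run, 0 members were called on the sense strand. Not every member could be called in each. DESeq2's Wald test gave no adjusted p for Zim1, Dlk1, Magel2, Mkrn3, Cdkn1c, H19 and Airn. Mkrn3 and H19 were not tested at a mean count of at least 50. Members at an unadjusted p under 0.05 numbered 2, against 4 with no filter, 1 with DESeq2's Wald test, and 1 to 4 when a library was left out (1 without WT replicate 1 or KO replicate 3, 4 without KO replicate 2). Over all genes 2 were called, against 298 with no filter (223 higher, 75 lower), 25 with DESeq2's Wald test (15 higher, 10 lower), 4 with the replicate block and 2 to 5 when a library was left out (5 without KO replicate 3). On the opposite strand limma-voom called 1 member, Ube3a (log2 fold change −0.18), and the other alternatives called 0. The cause of these differences was not tested.

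Of 460 member values over the alternatives, 431 kept their direction. Blcap was 0.0057 in the unstranded column and 0.0052 with no filter, and Gnas was −0.12 in the unstranded column and −0.0029 with total counts. When a library was left out, log2 fold changes spanned 0 for Peg3 (−0.050 to 0.0054), Usp29 (−0.099 to 0.025), Zim1 (−0.053 to 0.14), Mirg (−0.096 to 0.10), Begain (−0.0089 to 0.056), Ndn (−0.021 to 0.084), Mkrn3 (−0.13 to 0.31), Peg10 (−0.13 to 0.0029), Mest (−0.070 to 0.013), Nnat (−0.0099 to 0.084), Blcap (−0.036 to 0.036), Gnas (−0.024 to 0.036), Zrsr1 (−0.094 to 0.00074), H19 (−0.38 to 0.35), Airn (−0.034 to 0.27) and Nap1l5 (−0.064 to 0.074). The direction held but the size moved by over 1.5 times for Meg3 (0.049 to 0.11), Rian (−0.19 to −0.041), Dlk1 (0.020 to 0.32), Snrpn (−0.16 to −0.0057), Ube3a (−0.11 to −0.058), Magel2 (−0.22 to −0.022), Copg2 (−0.14 to −0.036), Impact (0.021 to 0.11), Grb10 (0.028 to 0.10), Kcnq1ot1 (−0.14 to −0.031), Plagl1 (0.066 to 0.23), Igf2r (0.034 to 0.076), Peg13 (0.022 to 0.055) and Inpp5f (−0.12 to −0.027). Cdkn1c ranged from 0.21 to 0.45 over all alternatives. It was lowest in the unstranded column, and its unadjusted p was over 0.05 there, with DESeq2's Wald test and without WT replicate 1, KO replicate 1 or KO replicate 3. Trappc9 ranged from 0.10 to 0.14, with an unadjusted p over 0.05 without WT replicate 3 or KO replicate 3. In the unstranded column Ube3a was at −0.15, and it and Trappc9 were the 2 members with an unadjusted p under 0.05, so an equal count did not mean the same genes. That column counts reads of both strands, and 59.7% to 63.3% of stranded counts over Ube3a were on the opposite strand. Same-numbered libraries did not pair (correlations of deviations 0.025, −0.020 and −0.067), so the replicate block shares only a number. H19, Mkrn3 and Dlk1 have too few counts to show a difference below their intervals.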
